A study of Mus musculus with 6 samples.

Results

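The genes described here encode the TNF ligands and the TNF receptors. They were taken by name from the deposited count table: every entry whose symbol starts with Tnfsf or Tnfrsf and a digit, plus Tnf, Lta, Ltb, Ltbr, Fas, Fasl, Cd40, Cd40lg, Cd27, Cd70, Ngfr and Relt. This gave 44 of 55571 entries, namely 17 ligand genes, 26 receptor genes and Tnfsf13os, an antisense RNA gene that shares the name but encodes no ligand. The cells were E0771, a mouse mammary carcinoma line. Libraries from cells with a control vector (vector control, 3 libraries) were set beside libraries from cells given wild-type Malt1 (Malt1-WT, 3 libraries). Both groups were at basal condition, with no stimulus named. Malt1 is a paracaspase and scaffold protein that acts upstream of NF-kB. The labels do not name the vector or its promoter, nor do they tie libraries to separate cultures or clones, so p-values measure only the spread between these libraries, which may be technical.

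TNF family ligands are mostly membrane-bound trimers, some of which, TNF among them, are cut from the cell surface. Their receptors fall into types by what lies inside the cell: a death domain that can recruit caspase-8, a short motif that binds TRAF adaptors and leads to NF-kB, or, in decoy receptors, neither. TNF itself is both a product and an inducer of NF-kB signalling, and many of the receptors are best known from lymphocytes.

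Total counts ran from 17601656 to 20543778 per library. Malt1 was counted 517, 633 and 611 times in the vector libraries and 5526, 6176 and 5087 times in the Malt1-WT libraries, in accord with the labels, although counts per gene cannot separate introduced from endogenous transcript. Expression below is in TMM-scaled CPM, which is the count relative to the size of its library. Of the epithelial markers, Krt8 and Epcam were present, with Krt8 called lower in Malt1-WT (log2 fold change -0.20), while Krt5 had no count and Krt18, Krt19, Krt14 and Cdh1 had at most 9 counts in any library. The summed level of 13 leukocyte markers ranged from 27.8 to 32.5 CPM across vector libraries and from 37.4 to 41.9 CPM across Malt1-WT libraries. Their defining members Ptprc, Tyrobp, Ms4a1 and Nkg7 had 0 to 3 counts per library, while Cd68, Cd14 and Adgre1 were called higher and Lyz2 and Fcer1g lower. The 4 endothelial markers summed to 4.57 to 5.84 CPM and 10.3 to 10.7 CPM, with Pecam1 the largest part. The 6 fibroblast markers, mostly Pdgfra and Pdgfrb, summed to 341 to 364 CPM and 357 to 383 CPM, with Pdgfrb called higher (log2 fold change 0.57) and Pdgfra (-0.48) and Col1a1 (-0.88) lower. The part of these marker changes in the results was not tested. In bulk RNA, more cells with a transcript and more transcript per cell cannot be told apart.

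A total of 26 family genes had enough counts to be tested, 8 ligands and 18 receptors. In Malt1-WT 20 of them were higher and 1, Tnfrsf1a, was lower (edgeR quasi-likelihood test, adjusted p under 0.05), while 5 did not pass. Among all 13594 tested genes 61.2% were called, 31.0% as higher and 30.2% as lower. A rise of at least 2-fold was called for 13 of the 26, beside 8.35% of all tested genes, and one of at least 4-fold for 7, beside 2.94%. None was called as lower by at least 2-fold, where 4.77% of all tested genes were. The libraries of the groups did not overlap for 21 of the 26 genes, 20 of them higher in Malt1-WT, beside 64.4% of all tested genes in either direction and 32.4% higher. Of the 26, 20 passed the count filter in all 6 libraries, with 15 higher, 1 lower and 4 not called. Of these 20, 8 were higher by at least 2-fold and 4 by at least 4-fold. The groups did not overlap for 16 of the 20, with 15 of these higher in Malt1-WT. Lta, Tnfsf15, Tnfsf13, Tnfrsf26 and Cd27 passed the filter only through the Malt1-WT libraries, so that they had to be higher there. The plot of CPM by library shows the values behind these counts.

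**Figure D1:**
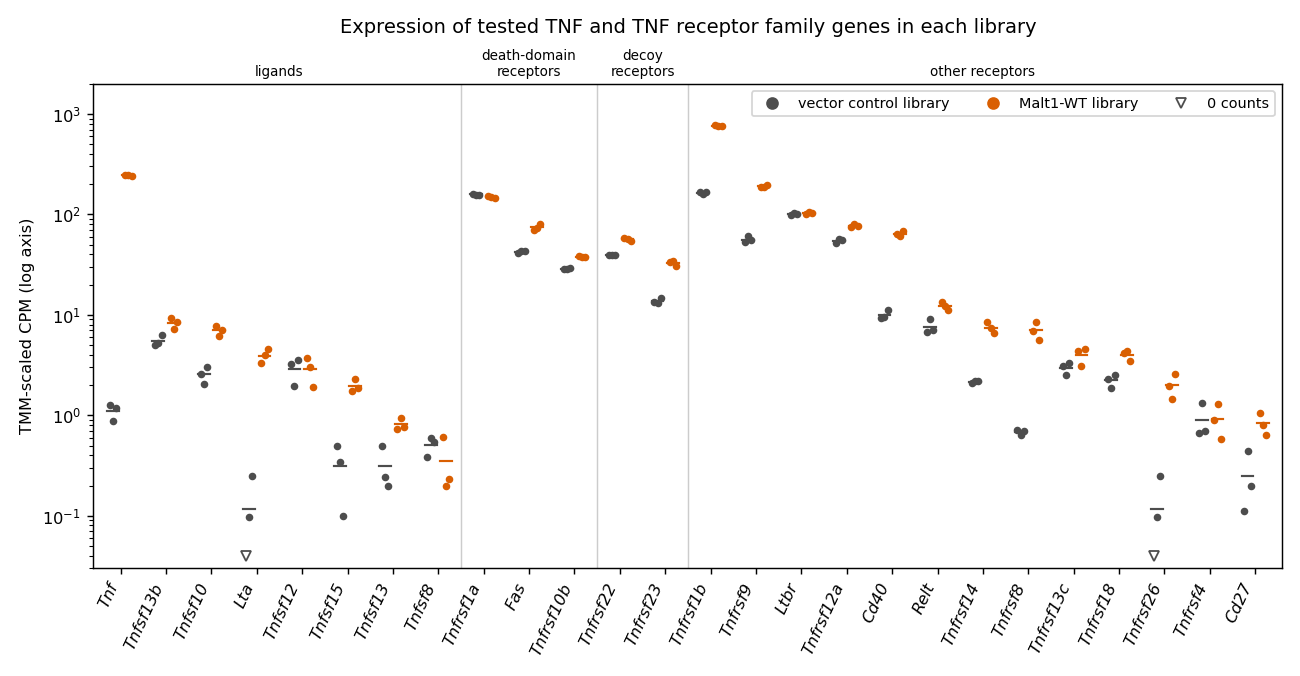
TMM-scaled CPM (log axis) of the 26 tested family genes in each of 3 vector control and 3 Malt1-WT libraries. Points are single libraries, short lines are group means and open triangles mark a library with 0 counts. Tnf goes from about 1 to 245 CPM, while the points of Ltbr, Tnfsf12, Tnfrsf13c, Tnfrsf4 and Tnfsf8 overlap between the groups.

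Among the ligands, Tnf had the largest change. Its level was 1.27, 0.883 and 1.19 CPM in the vector libraries and 248, 245 and 240 CPM in the Malt1-WT libraries. The groups lay far apart, with little spread inside Malt1-WT. This is a log2 fold change of 7.78 (SE 0.0751, 95% interval 7.63 to 7.93, edgeR adjusted p = 4.22e-55). Lta encodes lymphotoxin alpha, which as a trimer binds the same receptors as TNF. It was counted 0, 2 and 5 times in the vector libraries and 59, 79 and 78 times in Malt1-WT, a log2 fold change of 4.97 (95% interval 4.15 to 5.78, adjusted p = 1.75e-15). Its control level rests on 7 counts in all, so the size of the change is uncertain, and it was 6.07 without vector control replicate 3. Ltb encodes lymphotoxin beta, which joins lymphotoxin alpha in the membrane-bound ligand of Ltbr. It had 1, 1 and 2 counts against 4, 12 and 7, without overlap, and stayed below the count filter.

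Per kilobase of exon, a scale on which genes can be compared, Tnf was at 149 CPM in Malt1-WT and every other ligand at 2.84 CPM or less. Tnfsf15 encodes TL1A, a costimulator of T cells. It had 0.496, 0.343 and 0.0993 CPM in the vector libraries and 1.73, 2.29 and 1.87 CPM in Malt1-WT (log2 fold change 2.65, 95% interval 1.85 to 3.46). Tnfsf10 encodes TRAIL, a ligand that can trigger apoptosis. Its level of 2.59, 2.06 and 3.03 CPM compared with 7.71, 6.18 and 7.07 CPM, a 2.72-fold rise (adjusted p = 2.59e-10). Every Malt1-WT library of both genes lay above every vector library.

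Tnfsf13b and Tnfsf13 encode the B-cell survival factors BAFF and APRIL. Tnfsf13b was at 4.96, 5.30 and 6.26 CPM and at 9.33, 7.23 and 8.53 CPM, with a log2 fold change of 0.59 (95% interval 0.32 to 0.87, adjusted p = 0.000196). Tnfsf13 had 9, 5 and 4 counts against 13, 19 and 13 (log2 fold change 1.39, 95% interval 0.44 to 2.33, adjusted p = 0.00966). Leaving out vector control replicate 3 ended this call (adjusted p = 0.0633, with 0.00596 to 0.0633 over all alternatives that test against no change), and it did not pass against a 1.5-fold change (0.0886). Tnfsf12 encodes TWEAK, the ligand of Tnfrsf12a. Its libraries held 3.25, 1.96 and 3.53 CPM in the vector control against 3.74, 3.04 and 1.93 CPM, with overlapping libraries and an interval from -0.45 to 0.47 on the log2 scale. Exons of Tnfsf12 and Tnfsf13 are shared with the annotated joint gene Tnfsfm13 (48.3% and 60.0% of their bases), and those of Tnfsf13 overlap Tnfsf13os on the other strand, so their counts are not fully separate. Tnfsf8, the ligand of Tnfrsf8, had 7, 12 and 11 counts against 11, 4 and 4 (adjusted p = 0.368).

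**Figure D2:**
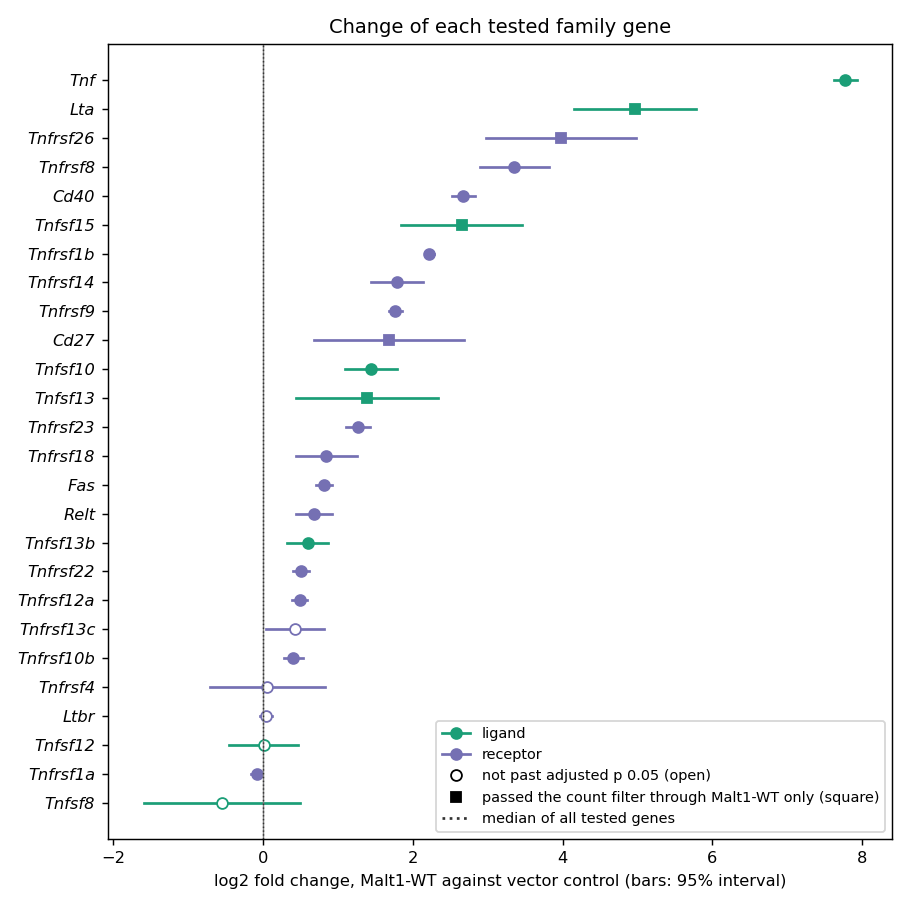
Log2 fold change of each tested family gene with its 95% interval, ligands in green and receptors in purple. Open symbols did not pass adjusted p 0.05, squares passed the count filter only through Malt1-WT, and the dotted line is the median of all 13594 tested genes. Tnf stands at 7.78 and Tnfrsf1a at -0.09, with the other called genes between 0.40 and 4.97.

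The receptors of TNF itself went separate ways. Tnfrsf1b encodes TNF receptor 2, which binds TRAF2 and has no death domain. Its level was 165, 160 and 165 CPM in the vector libraries and 769, 751 and 761 CPM in the Malt1-WT libraries, a 4.65-fold rise (log2 fold change 2.22, SE 0.0300, adjusted p = 1.99e-48). Tnfrsf1a encodes the death-domain receptor TNF receptor 1. It stood at 161, 158 and 155 CPM and at 152, 150 and 144 CPM, so that its groups were close but did not overlap. The log2 fold change was -0.09 (95% interval -0.16 to -0.01, adjusted p = 0.0347). This small decrease did not pass under several alternatives, among them DESeq2 (adjusted p = 0.0627) and the fits without vector control replicate 1 (0.0913) or without Malt1-WT replicate 3 (0.150). Over all alternatives that test against no change the adjusted p ran from 0.000103 to 0.150.

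Scaled by exon length, which allows levels of different genes to be set side by side, the ratio of Tnfrsf1b to Tnfrsf1a was 0.696, 0.690 and 0.722 in the vector libraries. In Malt1-WT it was 3.43, 3.39 and 3.59. Tnfrsf1a was thus the more abundant receptor in every vector library and Tnfrsf1b in every Malt1-WT library. With the median transcript length in place of the exon union, the mean ratio was 0.342 in the vector control and 1.69 in Malt1-WT. The same scaling put Tnf at 15.2 ± 1.06% of the summed ligand level in the vector control and at 94.4 ± 0.0229% in Malt1-WT (SD, n = 3 each), or at 8.01% and 91.1% with the median transcript length. With the exon union, Tnfsf12 held the largest part of the ligand sum in the vector control, 36.7% to 45.3%. With the median transcript length, Tnfsf13b had the higher mean there, 3.49 CPM per kilobase against 3.30 for Tnfsf12. On the exon union scale, the summed ligand level went from 3.53 to 5.13 CPM per kilobase in the vector libraries to between 155 and 161 in Malt1-WT. That of the receptors went from 243 to 248 up to between 510 and 513.

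**Figure D3:**
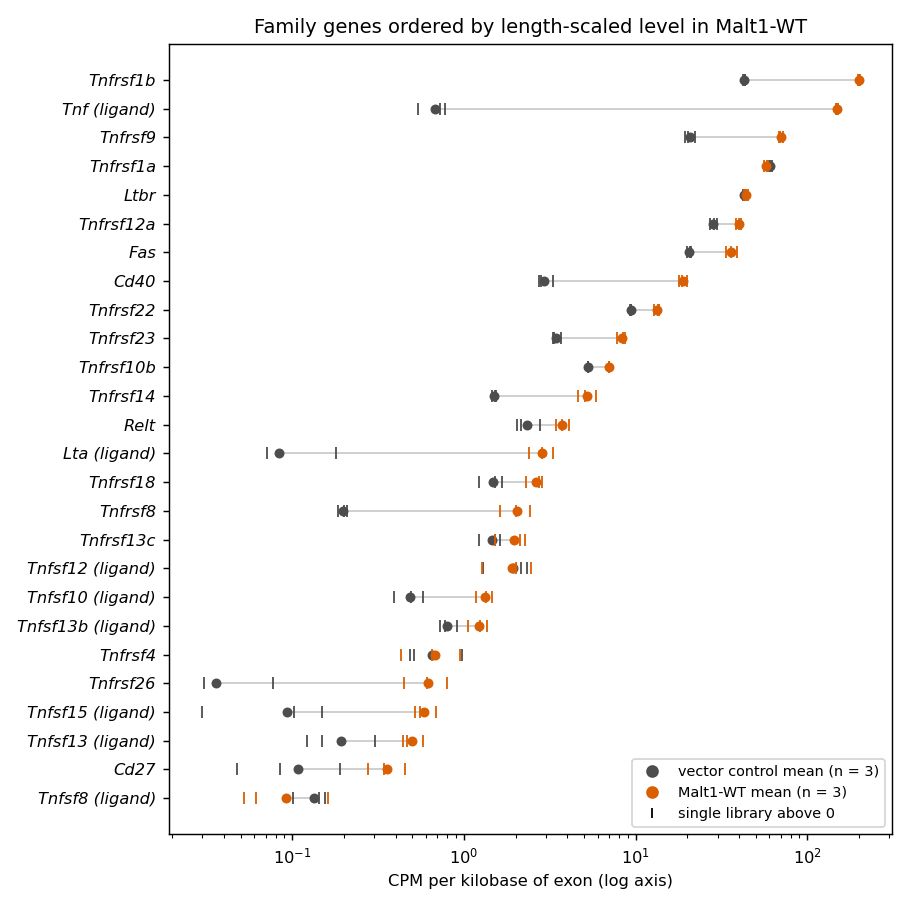
CPM per kilobase of exon (log axis) of the tested family genes, ordered by their mean in Malt1-WT. Dots are means of 3 libraries and ticks are single libraries above 0. On this exon union scale Tnf ranked 17 among the family genes in the vector control and 2 in Malt1-WT, behind Tnfrsf1b. With the median transcript length, Tnf (158) in Malt1-WT also lay below Ltbr (229), Tnfrsf1a (215) and Tnfrsf9 (190).

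Several receptors best known from lymphocytes and antigen-presenting cells also rose. Tnfrsf9 encodes 4-1BB, a costimulator of activated T cells. It was at 53.0, 60.6 and 55.0 CPM in the vector libraries and at 188, 187 and 197 CPM in Malt1-WT (log2 fold change 1.76, SE 0.0425, adjusted p = 3.02e-37). Cd40 encodes the receptor that antigen-presenting cells use to receive T-cell help. It went from 9.32, 9.51 and 11.2 CPM to 63.2, 61.2 and 68.2 CPM, a 6.38-fold rise (adjusted p = 1.09e-34). Neither gene showed overlap between the groups. Tnfrsf8 encodes CD30, a marker of activated lymphocytes. It had 13, 13 and 14 counts against 125, 169 and 96, a 10.2-fold rise (95% interval on the log2 scale 2.89 to 3.82). Its Malt1-WT libraries were uneven, with replicate 2 the highest.

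Tnfrsf14 encodes HVEM, the receptor of LIGHT. Its 2.09, 2.21 and 2.19 CPM in the vector libraries compared with 8.49, 7.33 and 6.60 CPM in Malt1-WT (log2 fold change 1.79, adjusted p = 3.88e-13). Tnfrsf18 encodes GITR, another T-cell costimulator. It was at 2.32, 1.86 and 2.53 CPM and at 4.19, 4.34 and 3.50 CPM (log2 fold change 0.85, adjusted p = 0.000307). The antisense gene Gm16008 overlaps 27.2% of Tnfrsf18 exon bases and was itself higher (log2 fold change 0.80), and without the strand setting their reads cannot be told apart. Tnfrsf4 encodes OX40 and lies next to Tnfrsf18. Its 12, 27 and 14 counts and 16, 26 and 10 counts overlapped, and the interval of its change, -0.70 to 0.82 on the log2 scale, is wide. Cd27 had 2, 9 and 4 counts against 19, 16 and 11 (log2 fold change 1.69, 95% interval 0.69 to 2.69, adjusted p = 0.00292). All Cd27 counts were low, and the value was 2.36 without vector control replicate 2. Tnfrsf13c, which encodes the BAFF receptor, was at 3.09, 2.50 and 3.33 CPM and at 4.36, 3.09 and 4.61 CPM and just missed the threshold (adjusted p = 0.0532).

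Promoter windows from RefSeq (GRCm38.p6, 250 bases before to 50 after a gene start) were held for 33 of the 44 genes. They were searched on both strands for the NF-kB consensus site and for the AP-1 site TGANTCA, the sequences bound by factors downstream of MALT1 signalling. The NF-kB consensus occurred in windows of Ltb, Tnfrsf8 and Tnfrsf9, so in 3 of 33 genes, beside 5.14% of all genes and 4.51% of all windows of this length. The AP-1 site occurred in those of Fas, Tnfrsf8, Tnfrsf9, Tnfsf13, Tnfsf13b and Tnfsf14, 6 of 33 genes, beside 8.97% of all genes and 7.81% of all windows. Of the 21 tested family genes with a window, 2 held the NF-kB consensus and 5 the AP-1 site. The shares over all tested genes with a window were 6.25% and 6.53%. Over genes called at least 4-fold higher they were 13.5% and 18.8%. The window of Tnfrsf8 and that of the downstream start of Tnfrsf9 are shown because each holds both motifs, and that of Tnf because it had the largest change. Capitals mark motif matches. In Tnfrsf9 a pair of overlapping NF-kB matches forms 1 run, 43 to 33 bases before the start, and the AP-1 match follows at 15 to 9 bases. The other window held for Tnfrsf9, of a start further upstream (chr4:150919905-150920204), holds neither. In the GENCODE M21 annotation the gene begins at 150914562, upstream of both, and no window was held there. Tnfrsf8 has the NF-kB match at 168 to 159 and the AP-1 match at 132 to 126 bases before the start. The Tnf window held neither string, which says only that these letters are not in this window. A match is a string of letters and does not show binding.
Tnfrsf9 (chr4:150927749-150928048, plus strand): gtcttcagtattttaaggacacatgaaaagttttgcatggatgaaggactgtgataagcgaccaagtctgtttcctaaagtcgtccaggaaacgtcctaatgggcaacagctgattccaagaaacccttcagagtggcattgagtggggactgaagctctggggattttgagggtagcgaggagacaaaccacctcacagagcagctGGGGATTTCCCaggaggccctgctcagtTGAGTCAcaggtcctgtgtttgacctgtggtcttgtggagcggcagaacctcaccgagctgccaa
Tnfrsf8 (chr4:145315115-145315414, minus strand): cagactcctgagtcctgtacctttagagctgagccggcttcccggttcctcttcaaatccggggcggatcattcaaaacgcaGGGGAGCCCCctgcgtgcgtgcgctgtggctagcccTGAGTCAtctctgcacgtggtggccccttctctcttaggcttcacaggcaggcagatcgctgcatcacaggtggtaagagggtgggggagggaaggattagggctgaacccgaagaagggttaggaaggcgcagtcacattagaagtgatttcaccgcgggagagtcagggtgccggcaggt
Tnf (chr17:35201958-35202257, minus strand): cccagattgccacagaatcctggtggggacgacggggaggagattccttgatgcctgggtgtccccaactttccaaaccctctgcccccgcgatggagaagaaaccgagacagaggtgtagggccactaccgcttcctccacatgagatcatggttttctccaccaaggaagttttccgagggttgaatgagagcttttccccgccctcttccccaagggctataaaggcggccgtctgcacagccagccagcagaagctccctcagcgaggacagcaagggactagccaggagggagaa

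Among the tested death-domain and decoy receptors, fold changes lay between 0.942 and 2.40. Fas encodes the receptor of FasL. It stood at 41.1, 42.8 and 43.1 CPM in the vector libraries and at 69.5, 73.8 and 79.9 CPM in Malt1-WT (log2 fold change 0.81, SE 0.0534, adjusted p = 5.58e-19). Tnfrsf10b, the mouse death receptor for TRAIL, was at 28.8, 28.6 and 29.0 CPM and at 38.1, 38.0 and 38.0 CPM, a 1.32-fold rise (adjusted p = 2.66e-07). Both genes were separated between groups in all libraries. Tnfrsf22 and Tnfrsf23 encode mouse decoy receptors for TRAIL. Tnfrsf22 rose 1.42-fold, from 39.7 ± 0.334 to 56.4 ± 2.10 CPM, and Tnfrsf23 rose 2.40-fold, from 13.7 ± 0.849 to 32.8 ± 1.92 CPM (SD, n = 3 each). Tnfrsf26 belongs to the same gene group. It had 0, 2 and 5 counts against 35, 29 and 44 (log2 fold change 3.98, 95% interval 2.98 to 4.98), and the value was 5.08 without vector control replicate 3. These 3 genes are similar in sequence and can share reads, so their separate values are uncertain.

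Of the remaining TRAF-binding receptors, Tnfrsf12a encodes Fn14, the receptor of TWEAK. It was at 52.2, 57.5 and 55.0 CPM and at 74.1, 79.8 and 77.1 CPM (log2 fold change 0.49, adjusted p = 1.87e-12). Relt went from 7.62 ± 1.27 to 12.3 ± 1.13 CPM (log2 fold change 0.68, adjusted p = 2.11e-06). Ltbr, which drives the alternative NF-kB arm, was at 99.7, 102 and 101 CPM and at 100, 106 and 103 CPM. Its libraries overlapped, and the interval of the change runs from -0.05 to 0.11 on the log2 scale.

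Against a 1.5-fold change in place of no change, 13 family genes passed, all of them higher, where 16.6% of all tested genes did. Of the 20 family genes that passed the count filter in all libraries, 9 passed. The 13 were Tnf, Lta, Tnfsf15, Tnfsf10, Tnfrsf1b, Tnfrsf9, Cd40, Tnfrsf8, Tnfrsf14, Tnfrsf23, Tnfrsf26, Cd27 and Fas.

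The 18 genes that were not tested had few or no counts. Fasl, Cd40lg, Cd70, Tnfsf4 and Tnfsf9, all ligands made mainly by activated immune cells, had no count in any library, which allows up to 3 counts per library. Besides Ltb, Tnfsf14 (LIGHT) was counted 0, 0 and 2 times in the vector libraries and 3, 3 and 9 times in Malt1-WT. Tnfrsf13b was counted 3, 0 and 0 times and 10, 1 and 2 times. The neurotrophin receptor gene Ngfr had 6, 2 and 6 counts and 3, 0 and 3 counts, and Tnfrsf25, the receptor of TL1A, had 4, 1 and 3 counts and 2, 0 and 1 counts. Tnfsf13os had 2 to 5 counts in each library. Tnfrsf11a, Tnfrsf11b, Tnfrsf17, Tnfrsf19, Tnfrsf21, Tnfsf11 and Tnfsf18 had 0 to 4 counts in each library, among them the RANK, RANKL and osteoprotegerin genes of bone turnover. When every gene with at least 1 count was tested, Ltb was the single added member called (adjusted p = 0.0189).

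Known ligand and receptor partners were then set side by side, counting a gene as present in a group when each of its 3 libraries held over 3 counts. Of 24 pairs, 6 had both partners present in the vector control and 9 in Malt1-WT. The 3 further pairs were Lta with Tnfrsf1a, Lta with Tnfrsf1b and Ltb with Ltbr. They rest on Lta, which passed the count filter only through Malt1-WT, and on Ltb, which stayed below that filter. In Malt1-WT, Ltb had 4, 12 and 7 counts and Tnfsf8 had 11, 4 and 4. The numbers of pairs thus depend on the minimum of over 3 counts. Pairs present in both groups were Tnf with each TNF receptor, Tnfsf8 with Tnfrsf8, Tnfsf10 with Tnfrsf10b, Tnfsf12 with Tnfrsf12a and Tnfsf13b with Tnfrsf13c. Among the receptor genes with no counted partner were Fas, Cd40, Tnfrsf9, Tnfrsf4 and Cd27. Their partners Fasl, Cd40lg, Tnfsf9, Tnfsf4 and Cd70 were at 0 in all libraries. Tnfsf15 was an inverse case, present in Malt1-WT while its receptor gene Tnfrsf25 had 0 to 2 counts per library there. Tnfsf13 was another, present in both groups while its listed receptor genes Tnfrsf13b and Tnfrsf17 were present in neither.

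Many family genes lie next to each other in the genome. On GRCm38, 23 of the 44 form 9 groups in which neighbours are at most 200 kb apart. Ltb, Tnf and Lta share 10.9 kb of chromosome 17 (35194439 to 35205351), and all 3 had every Malt1-WT library above every vector library. Of 7 other tested genes within 50 kb of these, 4 were higher, Lst1 (log2 fold change 2.19), Gm17705 (1.04), Nfkbil1 (0.37) and Bag6 (0.08), and Prrc2a was lower (-0.37). Over all 9 groups, 16 of 31 tested genes from outside the family were higher and 6 lower. Among all 13594 tested genes 31.0% were higher and 30.2% lower. The 16 include Gm16008, whose reads cannot be told apart from those of Tnfrsf18. On chromosome 4 Tnfrsf1b and Tnfrsf8 lie within 102 kb (145213463 to 145315164) and both rose. In other groups the calls were mixed. Tnfrsf1a and Ltbr on chromosome 6 are within 130 kb of Cd27 (125232622 to 125362484), which alone of the 3 was higher. Tnfsf15 and Tnfsf8 on chromosome 4 lie within 134 kb (63727084 to 63861347), and only Tnfsf15 passed the test. By contrast, Tnfrsf26, Tnfrsf22 and Tnfrsf23 fill 78.2 kb of chromosome 7 (143607659 to 143685872), and all 3 were called higher. These 3 can share reads, as said above. Lta, Cd27, Tnfsf15 and Tnfrsf26 passed the count filter only through Malt1-WT. They had to be higher there, so their calls say little about a group of neighbours.

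Genes that act with the family are given by lists that were chosen with earlier results known, and several lists share members. Over all 13594 tested genes the median log2 fold change was -0.0029, with 31.0% called higher and 30.2% lower, so a list's count near these shares is no result about that list. Of the TRAF adaptors, 4 of 7 rose, Traf1 (3.25), Traf6 (1.24), Traf4 (0.43) and Traf2 (0.26), and Traf7 fell (-0.37). In the receptor complex and its ubiquitin regulators 14 of 21 rose and 2 fell, Otulin (-0.34) and Tab1 (-0.18), with a median of 0.29. The largest rises were in the feedback inhibitor gene Tnfaip3 (2.92), Birc3 (2.62), Tnip1 (1.75) and Birc2 (0.51). In the alternative NF-kB arm 5 of 8 rose, with Nfkb2 at 1.57 and Relb at 1.24, while the kinase gene Map3k14 was at -0.15 (adjusted p = 0.123).

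Death receptor signalling genes were mixed. Of 11 tested, 4 rose, Mlkl (1.36), Ripk3 (0.97), Cflar (0.71) and Bid (0.33). The adaptor and initiator genes Fadd (0.10) and Casp8 (-0.10) did not pass. The median was 0.10. Of the genes for shedding of ligands and receptors, 3 of 7 were higher and 3 lower, near the shares over all genes. Rhbdf2 (1.23), a partner of the TNF-releasing protease ADAM17, Sppl2a (0.33) and Adam17 itself (0.32) were higher. Adam10 (-0.50), Sppl2b (-0.42) and Rhbdf1 (-0.11) were lower. Genes that control the stability or translation of Tnf mRNA rose in 6 of 11 cases and fell in 4. Zfp36 (3.67), whose protein destabilises Tnf mRNA, Zc3h12a (1.13) and Zfp36l1 (1.02) rose. Zfp36l2 (-0.44), Tia1 (-0.26), Khsrp (-0.24) and Tial1 (-0.20) fell. Among genes listed as TNF-responsive 26 of 27 rose, with a median of 2.16. Cxcl2 (6.15), Csf2 (6.04), Ccl5 (4.64) and Cxcl1 (4.25) rose most, and the exception was Tnfaip6 (-0.82). This list too was chosen with earlier results known and shares genes with the other lists. Whether TNF itself had a part in these changes was not tested.

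**Figure D4:**
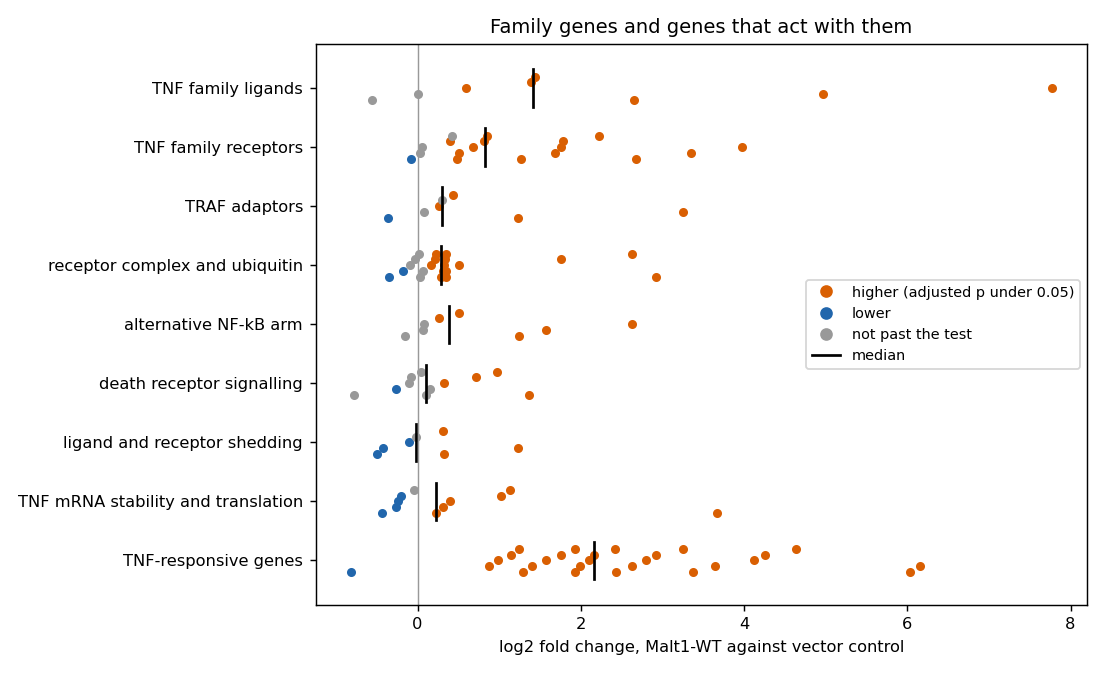
Log2 fold change of tested family genes and of the listed genes that act with them. Each dot is a gene, orange where higher, blue where lower and grey where not past the test, and black bars are medians. Genes listed as TNF-responsive have a median of 2.16, death receptor signalling genes one of 0.10. Lists were chosen with earlier results known, and a part of TNF in these changes was not tested.

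In the authors' deposited table, 5 of the 44 family genes had an adjusted p under 0.05, beside 1.13% of all its 55571 genes. These shares are over unlike sets, as 28089 of the 55571 genes had no count in any library. Only 13594 of them had enough counts to be tested here, against 26 of the 44 family genes. They were Tnf, Tnfrsf1b, Cd40, Tnfrsf9 and Tnfrsf8. In the authors' deposited table the score is 0 wherever the log2 fold change lies between -1 and 1, which holds for 50005 genes, Fas, Tnfrsf12a and Tnfrsf1a among them.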

How the data were processed

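RNAiso Plus was used for the RNA and NEBNext Ultra II Directional for paired-end libraries, per the labels' protocols. The submitters' processing notes list STAR 2.7.3a, Trim Galore 0.6.0 and featureCounts 1.6.3, with GRCm38.p6 (mm10) as build. Which annotation and strand setting featureCounts used is not given in the sources available. The authors deposited raw counts per gene symbol and library. Per the file headers, they also deposited a log2 fold change and mean log2 expression, a score (t statistic) and p-values with adjusted p-values from their own comparison.

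The analysis of the counts used edgeR 4.0.16 (R 4.3.3). Genes were filtered with filterByExpr (minimum count 10, about 0.526 CPM in 3 libraries) and scaled by TMM. They were tested with a robust quasi-likelihood fit without a block, with Benjamini-Hochberg adjustment over all tested genes and a threshold of 0.05. The SE is the log2 fold change divided by the square root of F. CPM uses full library totals and TMM factors, and length-scaled levels use the exon union in GENCODE M21. Same-numbered libraries did not deviate together (correlations -0.0261, -0.0207 and 0.0174). These values give no sign that the numbers pair samples, but they cannot exclude it. On simulated counts (13208 genes tested) 53.1% of 1.2-fold, 74.5% of 1.5-fold, 89.4% of 2-fold and 100% of 4-fold changes were recovered. Each rate rests on 47 to 49 changed genes, and 5 unchanged genes were called. The simulation used the spread between these libraries, and far fewer genes changed in it than were called here. Its rates therefore need not hold for these data. Alternatives also used DESeq2 1.42.0 and limma 3.58.1. Family genes and lists were chosen with earlier results of these data known. Every family gene is accounted for, and each list is given by up to 4 largest changes and its exceptions. Other listed genes were named after their values were seen, and 1 listed gene is not reported here.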

Additional observations from a re-analysis of the deposited data

How the results depend on the processing

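The family count stayed at 19 to 22 called genes under every alternative other than the test against 1.5-fold, which called 13 (13 higher, 0 lower) and 2250 genes in all, against 21 and 8320. The 1 decrease, Tnfrsf1a, was not called with DESeq2 or with the replicate block (0 lower in each, adjusted p = 0.0504 with the block), and leaving out single libraries gave 0 to 1. With the replicate block 20 family genes were called. Median log2 fold changes depend on which genes are tested. For all family genes the median was 1.05, and 0.83 with every gene counted at least once or 0.85 with a minimum count of 30. The 1.05 includes 5 genes that passed the count filter only through Malt1-WT and so had to be higher there. Over the 20 genes that passed it in all libraries, the median was 0.75. For ligands it was 1.41, against 1.34 with library size only, 2.05 with a minimum count of 30 and 1.27 to 1.64 when single libraries were left out. The ligands behind the 1.41 include Lta, Tnfsf15 and Tnfsf13, which passed only through Malt1-WT. Library size only moved the median of all genes to -0.08 and the share of higher calls from 50.6% to 41.3%. Of 5 related genes outside the family rule, 1 (Rell2) was called, 2 with library size only and 0 with a minimum count of 30. With the median transcript length, the ratio of Tnfrsf1b to Tnfrsf1a was 0.342 and 1.69 (0.703 and 3.47 with the exon union), and the Tnf share 8.01% and 91.1%. Uncalled genes near 0 changed sign. Tnfsf12 was at -0.012 with upper quartile scaling, -0.070 with library size only and -0.0057 with every gene counted at least once. Tnfrsf4 was at -0.017 and Ltbr at -0.043 with library size only. Leaving out single libraries gave -0.22 to 0.21 for Tnfsf12 and -0.28 to 0.46 for Tnfrsf4. Tnfrsf13c passed with a minimum count of 30 (adjusted p = 0.0489), without vector control replicate 3 (0.0425) and without Malt1-WT replicate 2 (0.0126), and the other tests against no change gave at most 0.231. The cause of these differences was not tested. Genes with few counts in a group, such as Lta, Tnfrsf26 and Cd27 in the vector control, have sizes limited by depth.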
